A study of Mus musculus with 2 samples.

Results

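S1-like early proximal tubule cells made up 693 of the 3261 kidney cells kept in this series, 322 of them in the CA3 library and 371 in the vehicle library. They were chosen by their own UMI counts (unique molecular identifiers, each standing for 1 captured RNA molecule), among barcodes with 500 genes or more whose mitochondrial RNA took no more than 50% of UMIs. Levels per cell are UMIs per 10,000 UMIs outside the mitochondrial genes. On that scale a member had Slc34a1 and Lrp2 summing to at least 25, Slc5a2 and Slc5a12 summing to at least 10, and Cyr61 and Fosb summing to under 4. The comparison cells, called other proximal tubule cells here, were the 784 CA3 and 995 vehicle cells that also reached 25 for Slc34a1 and Lrp2 but missed one of the further limits.

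The study profiled total kidney cells of female C57Bl/6 mice, 9 weeks old, by droplet 3' single-cell RNA-seq after rhabdomyolysis, the breakdown of skeletal muscle whose released myoglobin injures the kidney tubule. 1 library came from mice given CA3 after rhabdomyolysis and 1 from mice given vehicle after rhabdomyolysis, so both groups were injured and no uninjured kidney was analysed here. CA3 is known as a compound that blocks the transcriptional coactivator YAP1, and the series set out to find pathways in acute kidney injury and the chronic disease that follows. All mice carried Pax8.rtTA;TetO.Cre;R26.FUCCI2aR, in which a doxycycline-dependent activator made in Pax8-expressing tubule cells can switch on Cre and, through it, a cell cycle reporter. The sources used here give neither the dose nor the time after injury, and no number of animals per library. With 1 library per group no difference between CA3 and vehicle has a replicate check, no p-value is given, and every interval below covers counting error only.

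The first segment of the proximal tubule, S1, receives the filtrate from the glomerulus and takes back most of its glucose, amino acids, phosphate and bicarbonate, driven by the sodium gradient that the basolateral Na,K-ATPase keeps up. Glucose enters there through the high-capacity carrier SGLT2, encoded by Slc5a2, and leaves on the blood side through GLUT2, encoded by Slc2a2. Later segments take up the remainder with carriers of higher affinity such as SGLT1 (Slc5a1), secrete organic anions and cations, and burn more fatty acid.

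The gene Slc5a2 (chr7:128265657-128272430, mm10) encodes the defining glucose carrier and Slc5a12 (chr2:110597298-110647779) a low-affinity sodium-lactate cotransporter of early proximal tubule. Both genes had a UMI in 294 of 322 CA3 members and 337 of 371 vehicle members. Slc5a2 alone carried 18 CA3 and 19 vehicle members, and Slc5a12 alone 10 and 15. The median sum of the pair was 18.6 per 10,000 in CA3 members and 21.3 in vehicle members, from a median of 11 and 13 UMIs per cell. These values were set by the selection and are a description. The limit cut a continuous range. At 10 to 12 per 10,000 lay 50 CA3 and 52 vehicle members with a median of 6 UMIs of the pair each, and at 8 to 10 lay 44 CA3 and 56 vehicle cells that met the other limits, with medians of 4 and 5 UMIs. After thinning each cell to 2000 UMIs, Slc5a2 was detected in 80.9% of CA3 and 84.9% of vehicle members, in 23.9% and 20.7% of other proximal tubule cells, and in 3.49% and 2.04% of the 86 CA3 and 49 vehicle cells picked by leucocyte markers, which should lack it (unthinned 96.9% and 96.0%, 38.5% and 36.1%, 6.98% and 8.16%). Median depth was 5887 and 5682 UMIs outside mitochondria per member, 5973 and 5743 per other proximal tubule cell, and 5423 and 5169 per leucocyte-marker cell.

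**Figure D1:**
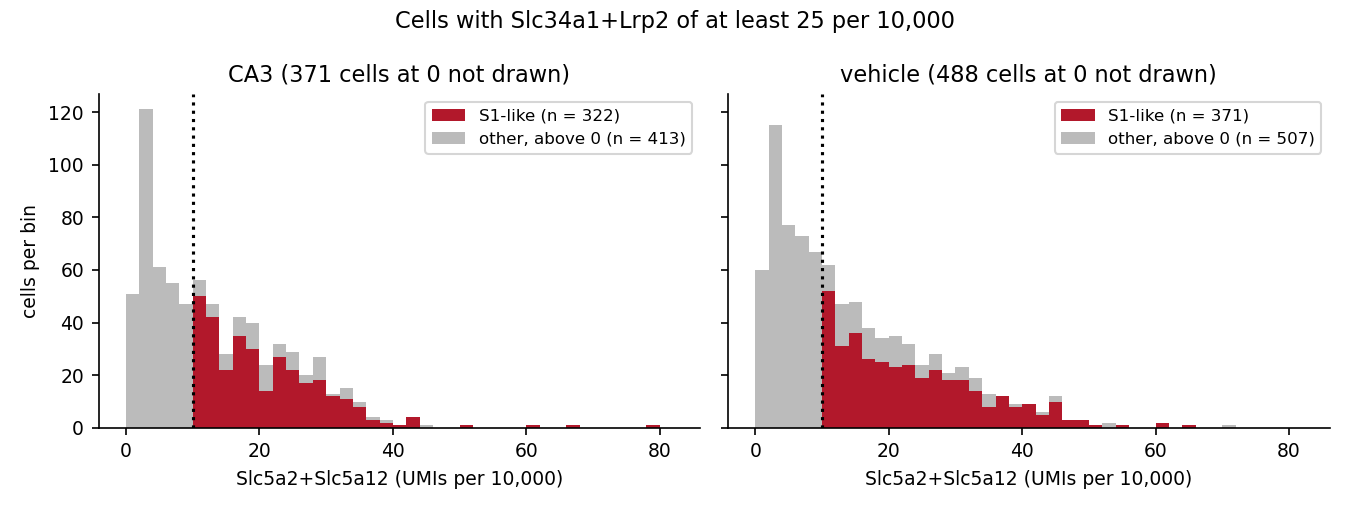
Summed Slc5a2 and Slc5a12 level per cell (x axis, UMIs per 10,000) among cells with Slc34a1 and Lrp2 at 25 or more, as cells per bin (y axis), with S1-like cells in red stacked under other cells in grey and the limit of 10 dotted. Grey cells right of the limit, 78 in CA3 and 115 in vehicle, were kept out by Cyr61 and Fosb, and no gap separates the cells on either side of the limit.

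In the deposited tables the libraries held 1724 CA3 and 1967 vehicle barcodes with 17013222 and 19592239 UMIs, of which 1494 and 1767 were kept. They shared 1 barcode sequence and no member's. Members held 2634944 CA3 and 2751538 vehicle UMIs outside mitochondria, which is the depth behind the sums below. Levels of a group of cells are given as CPM, the group's UMIs of a gene per 1000000 of its UMIs outside mitochondria. A gene counted as measured when the cells compared held 30 or more of its UMIs and its higher side reached 50 CPM with a UMI in 10% of the cells, and it is called higher or lower from 1.5-fold on.

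The label was checked on lists of segment genes that the selection did not name. Among 12 further S1 genes, 7 were at least 1.5-fold higher in members than in other proximal tubule cells in both libraries and none was lower, where 5.98% of 3296 measured genes were higher and 6.31% lower. The list's median log2 ratio was 0.73 in CA3 and 0.77 in vehicle, against -0.05 and -0.06 over all measured genes. The shares of 5.98% and 6.31% also apply to each list count against all other proximal tubule cells below. Slc6a19 (chr13:73679745-73704865), the main apical carrier of neutral amino acids, had 668 CPM in CA3 members and 662 in vehicle members, against 259 and 255 CPM in other proximal tubule cells. Slc2a2 had 428 and 418 CPM in members, against 259 and 246. Gatm, which makes the creatine precursor guanidinoacetate, had 3767 and 3560 CPM in members, against 2258 and 2076. Fxyd2, the Na,K-ATPase subunit on that list, was not higher, with ratios of 0.870 in CA3 and 0.833 in vehicle. The lists were chosen with earlier results of these data known, and the same cells were sorted by related genes. These ratios therefore describe the cells and were not tested.

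Genes of the later segments were low in members. Of 8 measured S2 genes, 5 were lower and none higher, among them the organic anion carrier Slc22a6 with 177 CPM in CA3 and 166 in vehicle members, against 482 and 423 in other proximal tubule cells. Of 16 genes on the S3 list 8 were measured, and 7 of those were lower. Kap (chr6:133849851-133853762), the androgen-regulated kidney protein of the mouse proximal tubule, had 11.8 CPM in CA3 and 19.3 in vehicle members, against 1446 and 2091 in other proximal tubule cells, a ratio of 0.00813 (95% interval 0.00552 to 0.0116) and 0.00921 (0.00690 to 0.0121). Kap was detected in 9.01% and 12.7% of members and in 11.4% and 16.4% of other proximal tubule cells, so in both groups its RNA was found in a minority of cells. Slc5a1, the high-affinity glucose carrier of late proximal tubule, had 7.59 and 5.45 CPM in members, against 63.3 and 68.0. Slc16a9, a monocarboxylate carrier, was the measured S3 gene that was not lower, at 0.894 and 1.09 times.

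Sodium-coupled carriers on the apical side split by segment. Of 8 measured genes of this group, Slc5a2 and Slc5a12 were higher by selection, and Slc5a1, Slc5a8 and Slc5a10 were lower. Slc5a8, a high-affinity sodium-monocarboxylate carrier, had 20.5 CPM in CA3 and 12.7 in vehicle members, against 175 and 178 in other proximal tubule cells, the reverse of its low-affinity relative Slc5a12. Slc5a10, a carrier of mannose and fructose, had 35.7 and 34.2 CPM in members, against 173 and 208. The sodium-proton exchanger Slc9a3 stood at 1.4985 and 1.462 times, just short of the call.

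Exit on the blood side was higher as a group. Of 12 measured basolateral genes 6 were higher and none lower (5.98% and 6.31% over all measured genes). Their median log2 ratio was 0.59 in CA3 and 0.69 in vehicle. Besides Slc2a2 these were amino acid exporters and exchangers. Slc7a8, which pairs with the heavy chain Slc3a2 to form the LAT2 exchanger, had 532 and 595 CPM in members, against 247 and 255. Slc7a7, the light chain of the cationic amino acid exporter y+LAT1, had 345 and 366, against 167 and 182. Slc16a10, the aromatic amino acid carrier TAT1, had 151 and 170, against 67.9 and 64.3. Slc43a2, the uniporter LAT4, had 248 and 198, against 89.2 and 70.5. Slc3a2 itself had 395 and 421, against 240 and 218. The sodium-bicarbonate cotransporter Slc4a4 stood at 1.37 times in CA3 and 1.53 times in vehicle, and the pump subunit Atp1b1 at 0.944 and 0.963 times, nearer to the other cells than the amino acid exporters were.

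On the apical side Slc6a19 had a counterpart in the opposite direction. Slc6a18, the glycine carrier of late proximal tubule, had 38.7 CPM in CA3 and 34.5 in vehicle members, against 232 and 235 in other proximal tubule cells. Of 12 measured amino acid carriers 3 were higher and 2 lower (5.98% and 6.31% over all measured genes). The other lower one was the GABA and betaine carrier Slc6a13 at 0.393 and 0.485 times. Phosphate uptake showed the same early bias in one carrier. Slc34a3 (chr2:25228898-25234364), the sodium-phosphate cotransporter NaPi-IIc, had 131 and 154 CPM in members, against 42.2 and 41.7, a ratio of 3.11 (2.64 to 3.67) in CA3 and 3.71 (3.20 to 4.30) in vehicle. Xpr1, the phosphate exporter, stood at 1.67 and 1.58 times, while Slc34a1 (chr13:55398187-55415592), the main phosphate carrier and part of the selection, stood at 1.33 and 1.39 times with 6125 and 6144 CPM in members.

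Genes of the endocytic machinery that retrieves filtered protein held no call. Of 16 measured genes for the receptors megalin (Lrp2, chr2:69424340-69586065) and cubilin (Cubn) and their uptake route, none reached 1.5-fold in both libraries in either direction. With 5.98% of all measured genes higher and 6.31% lower, having none called does not set a list this short apart. The list's median log2 ratio was 0.09 in CA3 and 0.12 in vehicle. Lrp2 was itself part of the selection of members and of the other cells. Cubn had 413 CPM in CA3 and 433 in vehicle members, against 394 and 394 in other proximal tubule cells, and the endosomal chloride exchanger Clcn5 stood at 1.24 and 1.45 times. Of 9 measured brush border peptidases 1 was higher and 4 were lower. Dpep1, a dipeptidase, had 214 and 190 CPM in members, against 78.5 and 63.0, whereas Mme (neprilysin), Mep1a (meprin alpha) and Ggt1 (gamma-glutamyl transferase) lay between 0.241 and 0.492 times.

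Against all other proximal tubule cells, fatty acid oxidation was the metabolic group with the lowest median ratio. Of its 22 measured genes 12 were lower in members in both libraries and none was higher, with a median log2 ratio of -0.67 in CA3 and -0.69 in vehicle. Cyp4a14, a fatty acid omega-hydroxylase, had 48.6 CPM in CA3 and 28.3 in vehicle members, against 325 and 293 in other proximal tubule cells. Cyp4a10, its relative, had 89.6 and 69.1, against 420 and 391. Acot1, which splits fatty acyl-CoA, had 29.2 and 29.8, against 118 and 148. Of 12 measured glutathione transferases 5 were lower and none higher, with Gstm1 at 0.497 and 0.492 times. Against only the other cells under the Cyr61 and Fosb limit, glutathione transferases had the lower median log2 ratio. It was -0.875 in CA3 and -0.777 in vehicle there, against -0.776 and -0.756 for fatty acid oxidation. Gpx3, the glutathione peroxidase that the proximal tubule secretes into plasma, went the other way. It had 20133 CPM in CA3 and 18415 in vehicle members, against 10048 and 8175. In members it was second only to Malat1 in a ranking without mitochondrial, ribosomal protein and reporter genes and predicted gene models. Of 9 measured genes of creatine and serine synthesis 3 were higher and 1 lower. Higher were Gatm, the creatine carrier Slc6a8 at 1.69 and 1.77 times and the glycine-cleaving Gldc at 1.81 and 2.23 times, and lower was Gamt, which completes creatine synthesis, at 0.627 and 0.467 times. Of 11 gluconeogenesis genes 1 was lower and none higher, and of 23 nuclear respiratory chain genes none reached the fold. With 5.98% of all measured genes higher and 6.31% lower, such counts do not set lists this short apart. Among 14 measured transcription factors and hormone receptors 1 was higher and 2 lower, where 5.98% of all measured genes were higher and 6.31% lower. The higher one was Maf, at 1.66 and 1.71 times, and the lower ones included the prolactin receptor Prlr, at 0.381 and 0.340 times.

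Across all genes 197 were higher and 208 lower in members in both libraries. Leaving out the selecting genes, the first of the higher ones by the interval bound nearest 1 were Snhg11, a host gene of small nucleolar RNA, and Tbx2, a T-box repressor. Snhg11 had 717 CPM in CA3 and 649 in vehicle members, against 139 and 96.1 in other proximal tubule cells. Tbx2 had 115 and 101, against 32.3 and 24.2. The nicotinic receptor subunit Chrna4 had 92.6 and 83.6, against 25.7 and 15.04. Ugt2b38, a glucuronosyltransferase, had 296 and 307, against 95.7 and 90.4. The netrin receptor Unc5c had 68.7 and 82.9, against 24.3 and 20.8. Epb41l3, a membrane skeleton protein, and Gpat3, an acyltransferase of triglyceride synthesis, were between 2.86 and 3.54 times, and so the list reached beyond solute carriers. Pabpn1 and Tia1, both RNA-binding proteins, also met the naming rule, and 39.5% of the 31-letter words in the last 400 bases of Pabpn1 transcripts occur in another gene, so its count is uncertain.

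Among the lower genes outside the selection Kap came first. Tmigd1, a brush border adhesion protein, had 10.2 CPM in CA3 and 17.8 in vehicle members, against 129 and 190 in other proximal tubule cells. Hpd, an enzyme of tyrosine breakdown, had 6.83 and 12.7, against 104 and 131. Napsa, the aspartic protease napsin A, had 140 and 88.7, against 948 and 1149. Pdk4, which holds back pyruvate oxidation, had 4.17 and 5.81, against 126 and 98.8, and Txnip, a glucose-induced arrestin, had 45.5 and 46.2, against 342 and 311. Pdk4 and Txnip were highest in the cells over the Cyr61 and Fosb limit, with 264 and 218 CPM of Pdk4 and 654 and 629 of Txnip. The unstressed cells without Slc5a2 and Slc5a12 had 20.5 and 11.3 CPM of Pdk4 and 97.6 and 69.8 of Txnip.

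**Figure D2:**
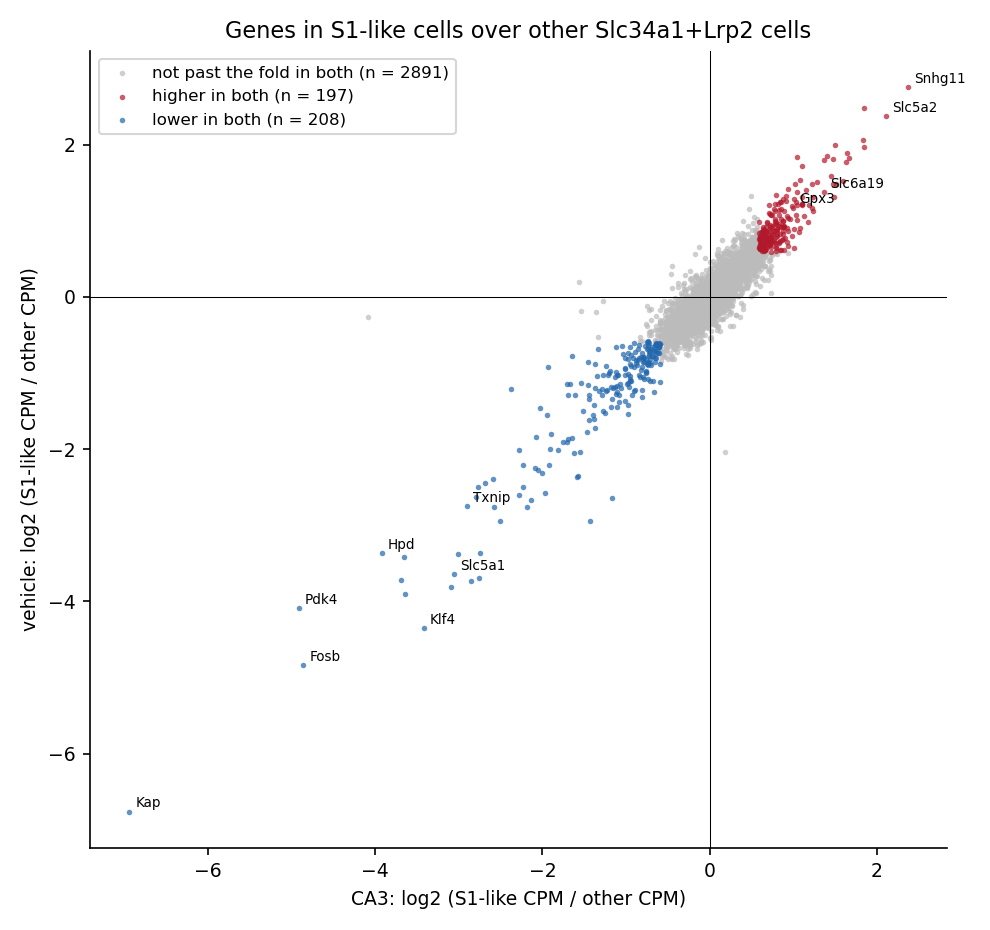
Log2 ratio of CPM in S1-like over other proximal tubule cells, in CA3 (x axis) and vehicle (y axis), 1 point per measured gene (n = 3296), red where at least 1.5-fold higher in both libraries and blue where lower. Points lie near the diagonal from Kap at -6.94 and -6.76 to Snhg11 at 2.37 and 2.76, so the libraries gave like ratios for most genes.

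Cyr61 and Fosb are switched on early in cell stress, and the limit on them set the level of their group. Of 15 measured immediate early genes 14 were lower in members, with Fos at 63.4 CPM in CA3 and 61.1 in vehicle members against 816 and 801 in other proximal tubule cells. This follows from the selection, since 223 CA3 and 281 vehicle cells of the comparison were there for Cyr61 and Fosb. Against the other cells that passed the same stress limit, Fos stood at 1.69 and 1.08 times and Rhob, a small GTPase of the same response, at 1.04 and 1.07. Of 8 immediate early genes measured there 3 were higher in members and none lower, with a median log2 ratio of 0.47 in CA3 and 0.44 in vehicle. In that comparison 558 of 3323 genes (16.8%) were higher in members and 414 (12.5%) lower, of which 190 and 148 were also called against all other cells. Slc6a19 stood at 3.36 and 3.56 times, Slc34a3 at 7.53 and 6.82, Napsa at 0.124 and 0.0634 and Kap at 0.00807 and 0.00799. Kap did not count as measured in both libraries in that comparison, so it is not among the 414. Slc6a18 stood at 0.181 and 0.156, slightly nearer to 1 than against all other cells.

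Between members and the unstressed cells with no Slc5a2 or Slc5a12 UMI stood 281 CA3 and 322 vehicle unstressed cells with a sum above 0 and under 10. They were intermediate for the segment genes given here. Slc6a19 had 668 CPM in CA3 and 662 in vehicle members, 270 and 271 in the middle cells, and 118 and 99.0 in the cells at 0. Tbx2 had 115 and 101, then 41.5 and 30.5, then 3.73 and 2.36. Gpx3 had 20133 and 18415 CPM in members, 12206 and 10151 in the middle cells and 6727 and 5174.5 at 0. Napsa ran the other way, with 140 and 88.7 CPM in members, 693 and 564 in the middle cells and 1637 and 2251 at 0. Lrp2 had 2596 and 2957 CPM in members, 2715 and 2961 in the middle cells and 2423 and 2928 at 0, without such a slope. Every cell compared had to reach the limit for Slc34a1 and Lrp2 together, so the selection limited how far Lrp2 could differ. The middle cells were 5179 and 5347 UMIs deep at the median and the cells at 0 were 4494.5 and 4333 deep, and the part of depth in the absence of Slc5a2 and Slc5a12 UMIs was not tested.

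**Figure D3:**
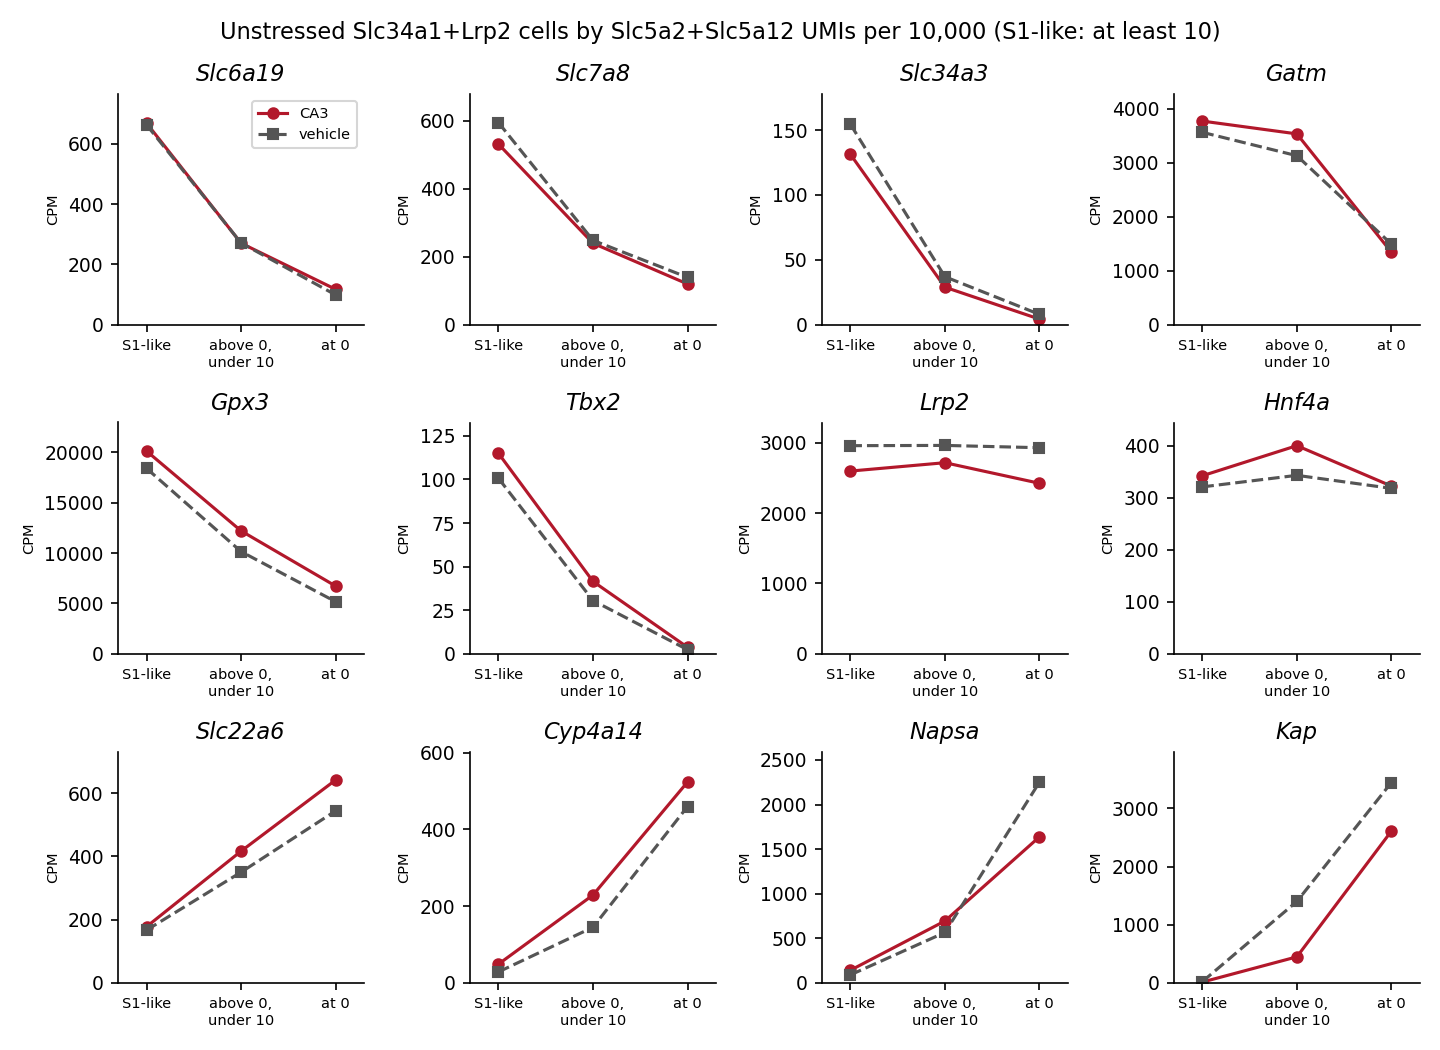
CPM (y axis, from 0) of 12 genes in 3 groups of unstressed cells ordered by their Slc5a2 and Slc5a12 sum (x axis), 1 line per library. Slc6a19, Slc7a8, Slc34a3, Gatm, Gpx3 and Tbx2 fall off from S1-like cells to cells at 0, and Slc22a6, Cyp4a14, Napsa and Kap run the other way. Lrp2, which was part of the selection, and Hnf4a differ little between the groups.

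Members differed from each other most in nuclear RNA. Malat1 (chr19:5795690-5802672), a long noncoding RNA kept in the nucleus, fell into 2 separate ranges with few cells between them. At a boundary of 200 per 10,000, set after the data were seen, 165 of 322 CA3 members (51.2%, exact 95% interval 45.6 to 56.8%) and 195 of 371 vehicle members (52.6%, 47.3 to 57.7%) were Malat1-rich, with a median of 1806 and 1921 per 10,000, and the other 157 and 176 had a median of 10.5 and 9.13. Only 8 CA3 and 5 vehicle members lay between 50 and 400. The Malat1-rich members had a median of 9950 and 9241 UMIs outside mitochondria, 3303 and 3143 genes and 12.9% and 10.3% mitochondrial UMIs. The Malat1-poor members had 4257 and 4136 UMIs, 1827 and 1764.5 genes and 28.3% and 28.6% mitochondrial UMIs. What sets the ranges apart was not tested.

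**Figure D4:**
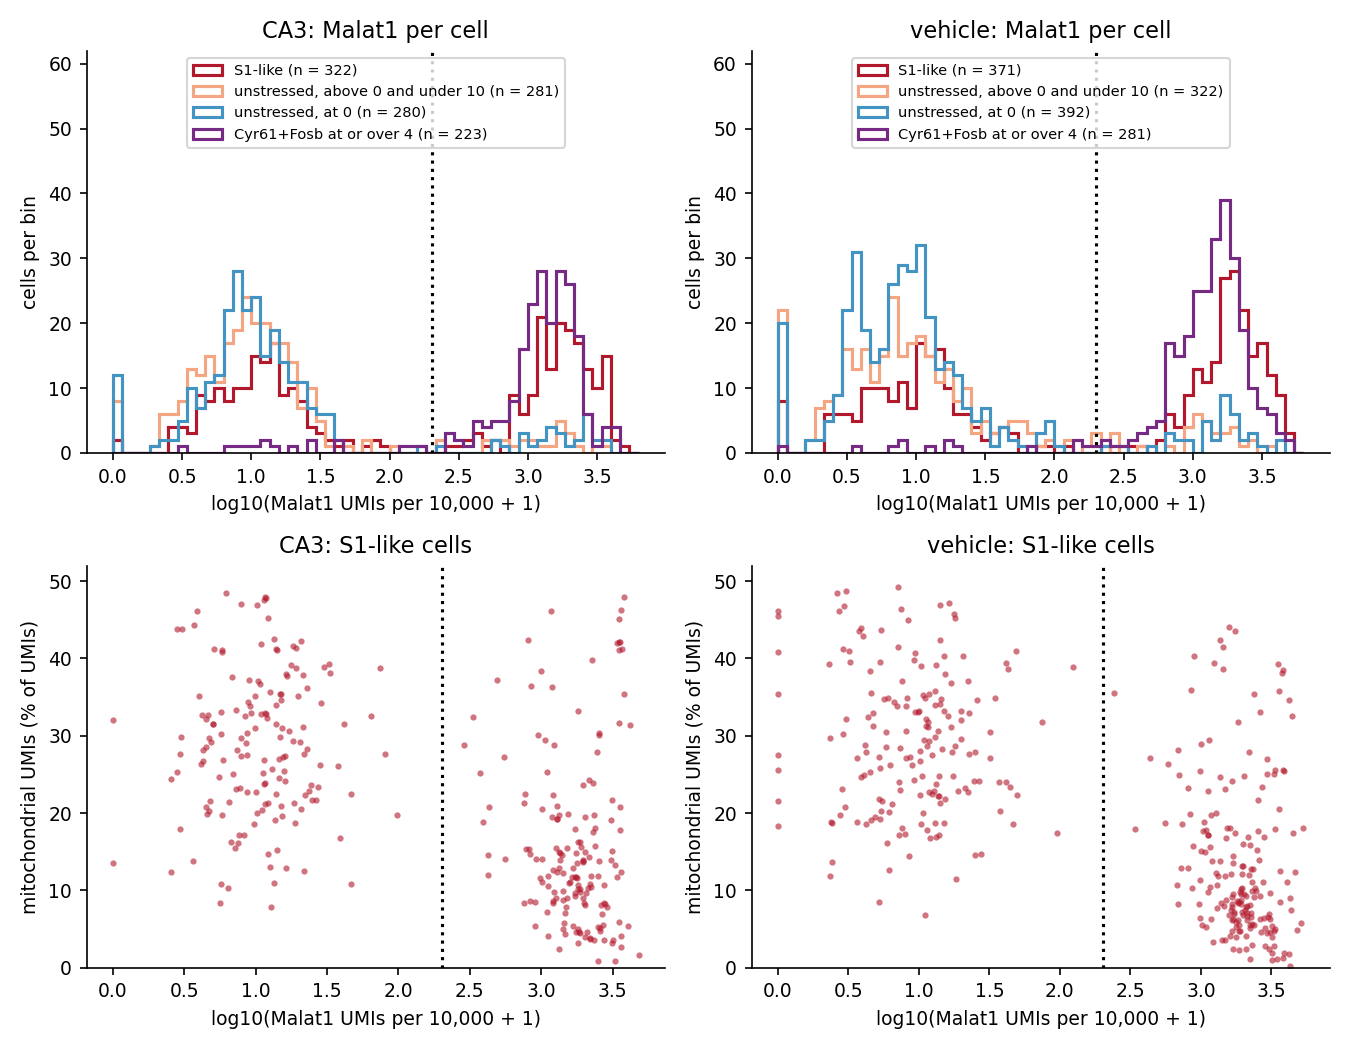
Upper panels give cells per bin by Malat1 level (x axis, log10 of UMIs per 10,000 plus 1) for S1-like cells and the other proximal tubule cell groups, and lower panels give the mitochondrial share (y axis) against Malat1 for each S1-like cell, CA3 on the left and vehicle on the right, with the boundary of 200 dotted. S1-like cells fill both ranges, stressed cells almost only the upper one, and unstressed cells with less Slc5a2 and Slc5a12 mostly the lower one.

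The same 2 ranges were present in the comparison cells but in other proportions. Malat1-rich cells were 33.5% of CA3 and 34.5% of vehicle other proximal tubule cells, 92.8% and 95.0% of those over the Cyr61 and Fosb limit, and only 9.25% and 10.9% of the unstressed middle cells and 10.7% and 10.5% of the unstressed cells at 0. Each ratio of members over other cells therefore also compares different mixtures of the Malat1 ranges. Within members, 771 of 3409 genes were higher and 832 lower in Malat1-rich than in Malat1-poor cells in both libraries. Xist, the RNA that coats the inactive X chromosome, had 4298 CPM in CA3 and 4496 in vehicle Malat1-rich members, against 6.49 and 28.1 in Malat1-poor members. Neat1, the RNA core of nuclear paraspeckles, had 2587 and 2291, against 28.6 and 34.9. The iron storage subunit Fth1 had 5936 and 6052, against 14201 and 16084, and the cytochrome oxidase subunit Cox7a2 had 817 and 713, against 2051 and 1880.5.

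Slc6a19, Slc34a3, Gpx3, Slc7a7 and Napsa kept their direction within each range. In Malat1-rich cells alone Slc6a19 stood at 2.22 times in CA3 and 2.26 in vehicle, members over other cells, and in Malat1-poor cells alone at 2.89 and 2.90. Slc34a3 stood at 2.28 and 2.75 in rich and at 5.31 and 6.05 in poor cells, Gpx3 at 1.91 and 1.93 and at 2.23 and 2.90, and Slc7a7 at 1.70 and 1.65 and at 2.85 and 2.67. Napsa stood at 0.163 and 0.0805 in rich and at 0.169 and 0.0883 in poor cells. In rich cells 128 of 3331 measured genes were higher (3.84%) and 214 lower (6.42%). In poor cells 105 of 2927 were higher (3.59%) and 118 lower (4.03%). Of the 197 higher and 208 lower genes called over all cells, 45 and 86 were called within both ranges as well. Snhg11 was almost wholly a gene of Malat1-rich cells, with 1008 and 956 CPM in rich and 11.7 and 7.87 in poor members, and kept a ratio of 3.90 and 5.30 among rich cells. Pabpn1 had ratios of 2.32 and 3.02 in rich cells and of 0.907 and 0.445 in poor cells, where its sums in members were 11.7 and 3.37 CPM. Among poor cells Tia1 was likewise lower in members than in other cells, in both libraries.

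The rule for variable genes took the 10 with the most variance beyond counting noise among members thinned to 2000 UMIs. Of these, Malat1, Neat1, Xist, Snhg11 and the gene model Gm26917, were nuclear or noncoding RNAs. Among the others, Spp1, the secreted phosphoprotein osteopontin, averaged 7.82 UMIs per thinned CA3 member and 8.47 per vehicle member, with single cells up to 108 and 92. Pck1, the cytosolic PEP carboxykinase of gluconeogenesis, averaged 3.95 and 2.70, and a member at the 90th percentile held 10 and 6. Akr1c21, a hydroxysteroid dehydrogenase, averaged 3.01 and 3.29, and Errfi1, an inhibitor of EGF receptor signalling, 1.84 and 2.02. Lars2, the mitochondrial leucyl-tRNA synthetase, completed the list.

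CA3 and vehicle kidneys yielded like proportions of these cells. Members were 29.1% of CA3 cells (322 of 1106, exact 95% interval 26.4 to 31.9%) and 27.2% of vehicle cells (371 of 1366, 24.8 to 29.6%) with Slc34a1 and Lrp2 at 25 or more, and 21.6% and 20.996% of all kept cells. The intervals overlap, and the share depends on the limits. Without the stress limit the shares were 36.2% and 35.6%.

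Expression within members was close between the libraries. Of 3332 measured genes 3009 (90.3%) were within 1.25-fold, the median log2 ratio was -0.01, and 19 genes (0.57%) were at least 1.5-fold higher and 19 (0.57%) lower in CA3. Slc5a2 had 1065 CPM in CA3 and 1051 in vehicle members, and Slc5a12 had 1014 and 1333. In other proximal tubule cells 10 of 3230 measured genes were higher and 11 lower, and 3 and 4 of those were the same genes as in members. Those cells held 6258093 CA3 and 7513432 vehicle UMIs outside mitochondria, more than members did. The part of depth in the number and overlap of calls was not tested.

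Of the 24 named genes, Gstp1, Itgb6 and Nme7 were past 1.5-fold under each alternative run, and each of the others fell short of it under at least one. Gstp1 (chr19:4035407-4037985), a pi-class glutathione transferase, had 63.0 CPM in CA3 and 18.9 in vehicle members, a ratio of 3.33 (2.43 to 4.64), and in other proximal tubule cells 105 and 32.2 CPM, a ratio of 3.26 (2.81 to 3.79). It was detected in 34.2% and 12.4% of members, and in 26.7% and 8.16% of leucocyte-marker cells, which are not tubule cells. Of the 31-letter words at the ends of Gstp1 transcripts 47.8% occur in another gene, so its count is uncertain. Pck1 (chr2:173153048-173159273) had 2121 CPM in CA3 and 1377 in vehicle members, a ratio of 1.54 (1.48 to 1.61) that fell short of the call under several alternatives, at 1.33 with the Slc5a2 and Slc5a12 minimum at 20. G6pc, the glucose-6-phosphatase that follows it in the pathway, had 993 and 773, a ratio of 1.28 (1.21 to 1.36). Ddit3, the stress-induced transcription factor CHOP, had 72.5 and 35.3 CPM, a ratio of 2.06 (1.60 to 2.65), against a ratio of 1.15 (0.970 to 1.36) in other proximal tubule cells. In cells thinned to 2000 UMIs the Ddit3 ratio in members was 1.26, and with no stress limit it was 1.48. Id3, a helix-loop-helix inhibitor, had 172 and 106 CPM, and the growth-response factor Egr1 had 68.7 and 36.0. The Egr1 ratio of 1.91 was 1.04 with the Slc5a2 and Slc5a12 minimum at 5 and 0.908 with no stress limit. The actin-sequestering thymosin Tmsb4x had 97.2 and 42.2 CPM, with 106 of 256 CA3 and 52 of 116 vehicle UMIs in 3 cells. Its ratio of 2.305 was 2.46 without those cells, but 0.807 with the Slc5a2 and Slc5a12 minimum at 5. A Tmsb4x UMI was found in 30.1% of CA3 and 15.1% of vehicle members, and in 98.8% and 100% of leucocyte-marker cells. The other named genes, Usp50, Tmem252, Napsa, Epc1, Cyp4b1 and Dnajc8, had ratios from 1.51 to 1.98.

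Among the lower genes Itgb6 and Nme7 were spread over many cells. Itgb6 (chr2:60598292-60722643), the integrin beta 6 subunit known for releasing active TGF-beta, had 92.6 CPM in CA3 and 205 in vehicle members, a ratio of 0.451 (0.386 to 0.525), with a UMI in 42.9% and 61.2% of members. In other proximal tubule cells it had 127 and 217 CPM, a ratio of 0.586 (0.538 to 0.638). Nme7, a nucleoside diphosphate kinase family member, had 71.0 and 145 CPM, a ratio of 0.491 (0.410 to 0.585). Dnase1, the secreted deoxyribonuclease, had 339 and 524 CPM, a ratio of 0.646 (0.594 to 0.703). Slc5a9, a sodium-glucose carrier relative of Slc5a2, had 35.3 and 61.1 CPM, a ratio of 0.578 (0.444 to 0.749), against 0.978 (0.812 to 1.18) in other proximal tubule cells. Ifi27, Osbpl3, Nme2 and Tsix had ratios from 0.617 to 0.648. Tsix is transcribed across Xist on the opposite strand, and 98.7% of the 31-letter words at the ends of Nme2 transcripts occur in another gene, so both counts are uncertain.

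The remaining 4 lower genes are markers of other cells, and in vehicle, though not in CA3, most of their UMIs in members came from 3 barcodes. Hbb-bs, a haemoglobin chain of red cells, had 15.9 CPM in CA3 and 70.1 in vehicle members, with 147 of the 193 vehicle UMIs in 1 barcode. Umod, the uromodulin of the thick ascending limb, had 37.2 and 144 CPM, with 256 of 395 vehicle UMIs in 3 barcodes. Klk1, the tissue kallikrein of the connecting tubule, had 86.5 and 297 CPM, with 486 of 817 vehicle UMIs in 1 barcode. Calb1, the calcium-binding protein of the distal tubule, had 39.1 and 66.9 CPM, with 114 of 184 vehicle UMIs in 3 barcodes. Of the 31-letter words at the transcript ends, 57.9% for Hbb-bs and 43.6% for Klk1 occur in another gene, so these counts are uncertain too. Without the 3 barcodes richest in each gene, the ratios were 0.875 for Hbb-bs, 0.556 for Umod, 1.05 for Klk1 and 1.19 for Calb1. Over 39 markers of other lineages members summed to 362 CPM in CA3 and 527 in vehicle, 4 and 8 markers were at 0, and 54 of 322 CA3 (16.8%) and 51 of 371 vehicle members (13.7%) held more than 5 UMIs of them per 10,000. The part of such RNA in the other differences was not tested.

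**Figure D5:**
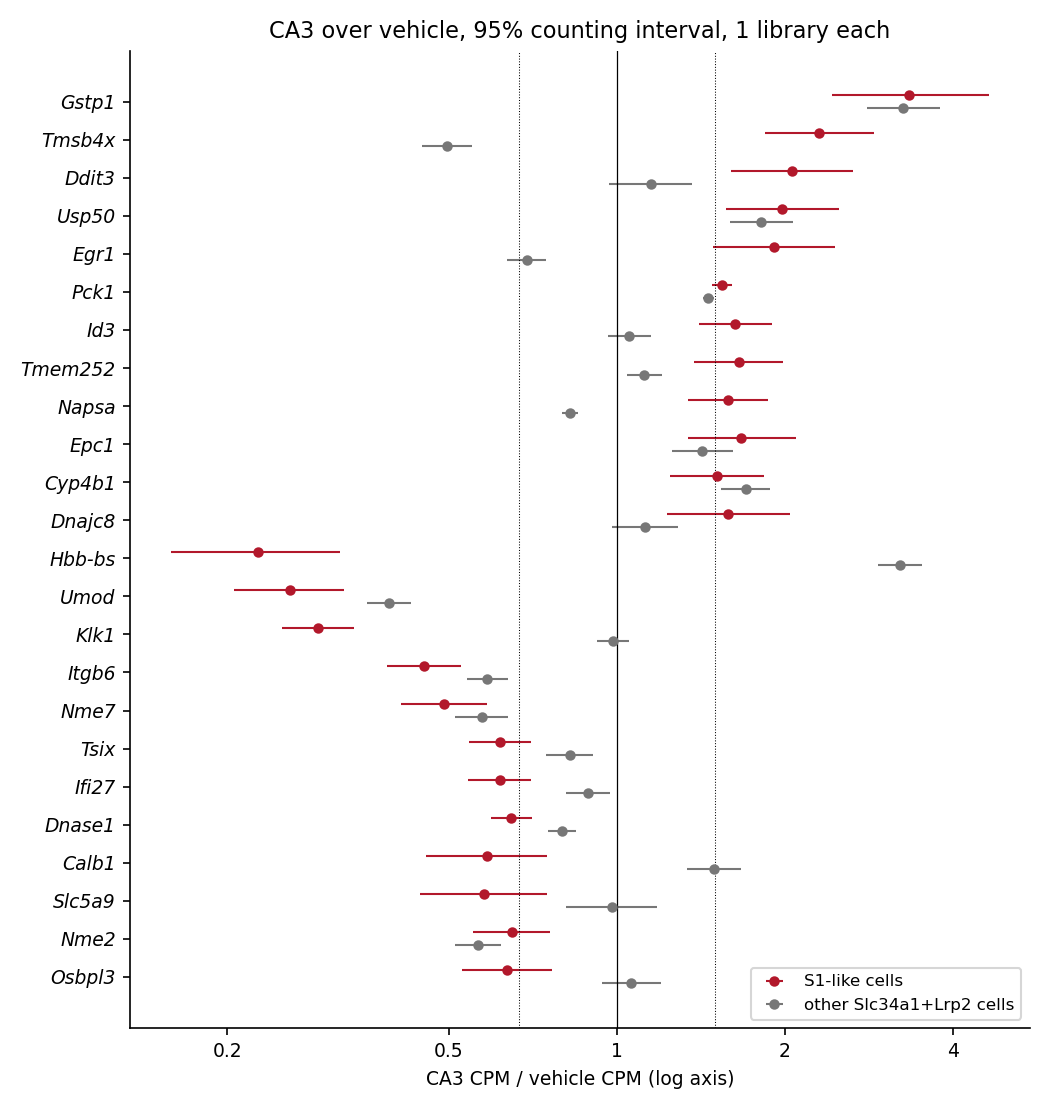
CA3 over vehicle ratio of CPM (x axis, log scale) with its 95% counting interval for the 24 named genes, in S1-like cells (red) and other proximal tubule cells (grey), with dotted lines at 1.5-fold. Gstp1, Usp50, Pck1, Cyp4b1, Itgb6, Nme7, Nme2 and Umod are among the genes on the same side in both cell groups. The intervals of Tmsb4x, Egr1, Napsa, Hbb-bs and Calb1 lie wholly on opposite sides of 1.

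With 0.57% of all measured genes called in each direction, these lists are too short for a count of 0 to set them apart. None of the 12 S1 genes was called, with ratios between 0.823 for Spp2 and 1.24 for Prodh2. None of 12 basolateral genes and none of 16 endocytosis genes was called, with ratios from 0.879 to 1.26 and from 0.834 to 1.07. Lowest among the endocytosis genes were the lysosomal cathepsins Ctsh at 0.834 (0.733 to 0.949) and Ctsb at 0.836 (0.777 to 0.900), and Lrp2 stood at 0.878 (0.850 to 0.907). Of 11 gluconeogenesis genes 1 was called, Pck1. None of 17 fatty acid oxidation genes was called, and Acaa1b, a peroxisomal thiolase, stood highest at 1.34 (1.18 to 1.52). Of 9 phosphate and vitamin D genes the vitamin D hydroxylase Cyp24a1 was lower, at 44.4 CPM in CA3 and 69.8 in vehicle members.

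Few targets of YAP1 passed the filter in members, and the target Cyr61 was itself used in the selection. Of 28 targets 4 were measured and none was called. Nuak2, a kinase, had 72.5 CPM in CA3 and 103 in vehicle members. Its ratio of 0.702 (0.582 to 0.847) was the lowest of the 4, and the highest was 1.01. Of 18 Hippo components 6 were measured and none called. Wwc1, a Hippo pathway scaffold, had 71.7 and 90.9 CPM. Its ratio of 0.789 (0.650 to 0.957) was the lowest of the 6, and the highest was 1.23. Of 23 tubule injury genes 4 were measured and none called. Spp1 had 3309 and 3903 CPM, a ratio of 0.848 (0.824 to 0.872), and the injury marker Havcr1 was at 0.380 and 1.09 CPM, too few UMIs to compare. Among RNAs encoded in mitochondria, which stayed out of the CPM, mt-Nd3 had 6784.5 and 4335 UMIs per 1000000 of all UMIs, a ratio of 1.57 (1.53 to 1.60), against 1.44 (1.42 to 1.46) in other proximal tubule cells. The other mitochondrial RNAs had ratios in members from 0.932 for mt-Atp8 to 1.07 for mt-Nd4l.

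Gstp1, Itgb6 and Nme7 had like treatment ratios in both Malat1 ranges. Gstp1 stood at 3.14 (2.02 to 5.04) in rich and 3.74 (2.36 to 6.12) in poor members, Itgb6 at 0.430 (0.360 to 0.513) and 0.503 (0.366 to 0.684), and Nme7 at 0.479 (0.385 to 0.593) and 0.520 (0.376 to 0.713). Pck1 was an exception, with 2154 CPM in CA3 and 1593 in vehicle rich members, a ratio of 1.35 (1.29 to 1.42), and 2042 and 924.5 CPM in poor members, a ratio of 2.21 (2.03 to 2.41). Dnase1 stood at 0.561 (0.504 to 0.625) in rich and 0.837 (0.730 to 0.960) in poor members, and Slc5a12 at 0.711 (0.673 to 0.752) and 0.935 (0.830 to 1.05).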

How the data were processed

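Droplet 3' single-cell RNA-seq gave 1 CA3 and 1 vehicle library. The deposited tables hold UMI counts per gene and barcode, made with Cell Ranger 3.0.1 on mm10, per the submitters' processing notes. Counts of the selected cells were summed per library, scaled to CPM over genes outside mitochondria, and divided. Ratios carry exact conditional binomial 95% intervals and shares exact Clopper-Pearson intervals, all for counting error only. With 1 library per group no test was run. Members and lists were chosen with earlier results of these data known. Named genes were up to 12 (treatment) or 15 (segment) per direction by the interval bound nearest 1, the 10 most variable, and up to 4 per list by size of change, plus the selection, S1, glucose, exit and endocytosis genes. Other genes named for Malat1, and its boundary of 200, were chosen after their values were seen. No doublet caller was run, and members with RNA of other lineages were left out as an alternative. Scripts (python 3.11.15, numpy 2.4.6, scipy 1.17.1, pandas 2.3.3, matplotlib 3.10.9) were tested on simulated data. Coordinates are from the GENCODE annotation of mm10.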

Additional observations from a re-analysis of the deposited data

Results flagged for a closer look

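For 5 of the 24 genes named for the treatment comparison the counting intervals of the CA3 over vehicle ratio lay wholly on opposite sides of 1 in S1-like and in other proximal tubule cells. With 1 library per group the difference between the cell groups was not tested. Tmsb4x stood at 2.305 in S1-like and 0.4958 in other cells. In members 106 of 256 CA3 and 52 of 116 vehicle Tmsb4x UMIs lay in 3 cells. Nearly all leucocyte-marker cells held this RNA (98.8% in CA3 and 100% in vehicle). Among the other vehicle cells it had 193 CPM in the unstressed middle cells, 32.5 in those at 0 and 251 in the stressed cells. Egr1 stood at 1.909 in S1-like and 0.6884 in other cells. The limit on Cyr61 and Fosb placed the cells over it among the other cells, and Egr1 had 280 CPM in CA3 and 452 in vehicle there. Egr1 had 50.2 and 82.8 CPM in the unstressed middle cells and 52.2 and 21.2 in the unstressed cells at 0. With no stress limit the Egr1 ratio in members was 0.908. Napsa stood at 1.583 in S1-like and 0.8248 in other cells. Hbb-bs stood at 0.2272 in S1-like and 3.216 in other cells, and Calb1 at 0.5846 and 1.493, both with most vehicle UMIs of members in 3 barcodes.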

How the results depend on the processing

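No paired analysis was possible because each group is 1 library. Of the values for single genes under the alternatives, 677 stayed near the main value, 308 moved and 31 reversed, and of the list medians 302 stayed and 33 moved; the causes were not tested. Settings on both-gene detection and on Malat1 were chosen after seeing the data. Under a stricter filter of 1000 genes and 25% mitochondrial UMIs the vehicle share was 24.5%, 33 genes were higher in CA3, Klk1 stood at 1.19 and Calb1 at 1.43. At a Slc5a2 and Slc5a12 minimum of 20 the shares were 12.9% in CA3 and 14.7% in vehicle, 437 genes were higher and 482 lower than in other cells, 51 were higher and 49 lower in CA3, and Calb1 stood at 1.03. At a minimum of 5 the shares were 39.7% and 38.0%, 98 genes were higher than in other cells, 10 were higher in CA3, and Tmsb4x stood at 0.807. With no stress limit the shares were 36.2% and 35.6%, 359 genes were higher than in other cells, 8 were higher in CA3, Egr1 stood at 0.908 and Hbb-bs at 8.70. With both genes detected the vehicle share was 24.7%. With equal weight per cell 33 genes were lower in CA3. Without the 50 highest genes in the total 397 genes were higher than in other cells, and 31 higher and 34 lower in CA3. Thinned cells gave 94 higher and 101 lower in CA3. A filter of 30 UMIs alone gave 621 higher and 509 lower than in other cells, and 364 higher and 299 lower in CA3. Without members holding RNA of other lineages Klk1 stood at 1.11 and Calb1 at 1.39, and without the 3 richest barcodes at 1.05 and 1.19. Against unstressed cells 558 genes were higher and 414 lower, with Fos at 1.69 in CA3 and 1.08 in vehicle, Rhob at 1.04 and 1.07, Klf4 at 6.27 and 0.945, and Btg2 at 1.13 and 0.525. Against unstressed cells at 0 for Slc5a2 and Slc5a12 679 were higher and 486 lower, with Fos at 1.46 and 2.09, Klf4 at 7.32 and 1.09, Rhob at 1.07 and 1.60, and Btg2 at 1.02 and 1.60. Malat1-rich cells alone gave 128 higher than other cells and 36 higher in CA3. Malat1-poor cells alone gave 105 higher and 118 lower than other cells and 83 higher and 127 lower in CA3, with Epc1 at 0.794, Pabpn1 at 0.907 and 0.445, Tia1 at 0.870 and 0.667, and in vehicle Fos at 1.15 and Pdk4 at 1.5005.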

Other observations

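The deposited tables list 5 reporter features, and the sources used here do not say how they relate to the reporter named in the genotype. MbmCerulean had 106 UMIs in CA3 members and 52 in vehicle members, or 40.2 and 18.9 CPM, with a UMI in 23.3% and 11.1% of members and a ratio of 2.13 (1.51 to 3.03), against a ratio of 1.72 in other proximal tubule cells. The feature tdimer2 had 21 and 4 UMIs and EYFP had 12 and 6, while hrGFPIINLS and EGFP had none in members. The tdimer2 ratio was 5.48 (1.85 to 22.0) in members and 16.1 (9.15 to 30.8) in other proximal tubule cells, with 27.8 CPM in CA3 and 1.73 in vehicle there. For EYFP the ratios were 2.09 (0.725 to 6.78) and 1.83 (1.28 to 2.65).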
